A study of Mus musculus with 4 samples.

Results

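Srpk2, Galnt11 and Gm2420 are 3 genes on mouse chromosome 5 that read lower in double-positive (DP) thymocytes lacking Uqcrfs1 than in control thymocytes. They were picked, out of 43430 genes in the count table, because their rows in the authors' deposited comparison gave lower levels in the knockout (KO) and because they start within a window of 9.3 Mb on chromosome 5 (mm10). Their KO against control values are therefore given as a description, with no test. All 3 were among the 13281 genes that passed the filter on low counts. The window holds 187 genes of the table, and 78 of its other genes passed the same filter. Uqcrfs1 itself lies on chromosome 13 and encodes an essential subunit of respiratory complex III.

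The study sequenced RNA from the thymus of C57BL/6 mice, from cells carrying both CD4 and CD8 and isolated by flow sorting. The KO group holds 2 mice of genotype Uqcrfs1fl/fl; CD4-Cre+, in which Cre under control of Cd4 sequences deletes the floxed gene in T-lineage cells from the DP stage on. The control group holds 2 littermates. Their genotype label is WT while the series' design text calls them heterozygous. The sources used here do not say whether they carried Cre, or how old the 4 mice were. Each library is 1 mouse, and the 4 libraries are called WT 1, WT 2, KO 1 and KO 2. Uqcrfs1 stood at 61.4 and 57.2 CPM (counts scaled to a common library total) in WT 1 and WT 2 and at 15.6 and 18.6 CPM in KO 1 and KO 2, so the libraries follow their labels. Gene counts came to between 30408863 and 34080516 per library. The summed level of 8 DP markers (Cd4, Cd8a, Rag1 and others) lay between 14566 and 15804 CPM in every library, and that of 4 B cell markers was at most 1.86 CPM.

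SRPK2 is a serine/arginine protein kinase. Kinases of this family phosphorylate SR proteins, the arginine- and serine-rich splicing factors, and so govern their entry into the nucleus and their work on introns. GALNT11 is a polypeptide N-acetylgalactosaminyltransferase of the Golgi, one of the enzymes that place the first sugar of mucin-type O-glycans on serine and threonine, and it is known for modifying Notch receptors, whose signals drive early thymocyte development. Gm2420 encodes no known protein. GENCODE lists it as a transcribed unprocessed pseudogene, meaning a copy made by duplication of genomic DNA that is still transcribed.

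The sequences below show where the transcripts of the pair of coding genes begin and how close the pseudogene is to its nearest relative. RefSeq (GRCm38.p6) holds 3 start regions for Srpk2 and 2 for Galnt11, each 250 bases before to 50 bases after a transcript start, and the one with the most CpG is shown for each gene. Capitals mark GGGCGG, the GC box, on either strand, and in Galnt11 also TGACGTCA, the cAMP response element, which directly follows the second GC box.

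Srpk2, chr5:23675918-23676217, minus strand: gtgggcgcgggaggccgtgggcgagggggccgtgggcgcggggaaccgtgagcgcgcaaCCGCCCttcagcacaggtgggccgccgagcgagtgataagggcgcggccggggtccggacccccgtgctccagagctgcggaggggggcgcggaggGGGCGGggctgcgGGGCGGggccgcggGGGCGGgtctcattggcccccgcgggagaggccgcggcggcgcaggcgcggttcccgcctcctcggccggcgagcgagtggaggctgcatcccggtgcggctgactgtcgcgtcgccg
Galnt11, chr5:25222622-25222921, plus strand: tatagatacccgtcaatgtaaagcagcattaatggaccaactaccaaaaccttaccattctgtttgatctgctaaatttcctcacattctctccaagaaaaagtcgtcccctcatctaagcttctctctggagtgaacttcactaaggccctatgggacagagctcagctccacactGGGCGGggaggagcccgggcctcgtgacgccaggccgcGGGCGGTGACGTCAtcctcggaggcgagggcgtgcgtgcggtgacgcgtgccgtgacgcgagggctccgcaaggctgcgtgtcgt

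The Srpk2 region held 47 CpG and 4 GC boxes, and the Galnt11 region held 23 CpG, 2 GC boxes and 1 cAMP response element. The median over 32851 RefSeq start regions of this length was 7 CpG. On either strand, 35.66% of those regions held GGGCGG and 1.79% held TGACGTCA. The CCAAT box, searched by its name's letters, was found 1 time in the Srpk2 window and is held by 37.41% of all regions. No TATA box (TATAAA) was in either printed window, and 13.62% of all regions hold one. The E-box with the letters CACGTG, which 7.15% of all regions hold, was in neither window. The same was true of TGATGNAA, the C/EBP-ATF response element, at 3.969% of all regions. The second Srpk2 region, chr5:23616522-23616821, matches the 5′ end of the gene as the authors' table gives it and held 5 CpG and 1 TATA box. The remaining Srpk2 region held 7 CpG. The other Galnt11 region held 7 CpG and 1 TGATGNAA. Since the printed regions were picked for the most CpG, their excess over the median is partly built in.

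The other pair of sequences is a 120-base stretch of Gm2420 and the matching stretch of the messenger RNA of Sfi1, which encodes a centrin-binding protein of the centrosome. The Gm2420 stretch lies inside 1 exon of 260 bases. It was picked as the gap-free run of this length in that exon with the most differences. Capitals mark the 8 positions at which they differ, and both sequences come from GENCODE M21 transcripts.

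Gm2420, chr5:32730887-32731006, plus strand: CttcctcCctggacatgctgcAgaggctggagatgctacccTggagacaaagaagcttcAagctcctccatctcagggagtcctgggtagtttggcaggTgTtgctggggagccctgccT
Sfi1, messenger RNA sense strand: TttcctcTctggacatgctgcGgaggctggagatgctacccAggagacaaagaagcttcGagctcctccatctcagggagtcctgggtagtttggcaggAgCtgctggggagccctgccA

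Over its whole length of 2249 bases, the longest Gm2420 transcript aligned to an Sfi1 transcript with 93.9% identity over 2266 aligned positions, with 117 mismatches and 21 gap positions. The only other gene found by BLAST, at an E-value of at most 1e-20, was Gm11399, over 81 bases. Reads that fall on runs without a difference can come from either gene, and the sources used here do not say how such reads were assigned.

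Srpk2 (ENSMUSG00000062604) lies on the minus strand, at 23503356 to 23616571 in the authors' table and at 23503264 to 23684617 in GENCODE M21, which lists 10 transcripts with up to 15 exons. Its raw counts were 5966 in WT 1, 8485 in WT 2, 3831 in KO 1 and 3547 in KO 2. On the CPM scale, scaled by TMM factors, these are levels of 182, 279, 112 and 112. Both KO libraries lay below both WT libraries, and the KO libraries stood almost on one another while the WT libraries were far apart. The group levels were 231 ± 69.1 CPM (SD, n = 2) in WT and 112 ± 0.414 CPM (SD, n = 2) in KO. The fitted log2 difference, KO against WT, was −1.04 with a standard error of 0.25. Between WT 2 and WT 1 the log2 difference was 0.62, and between KO 2 and KO 1 it was −0.01. WT 1 was 1.62-fold above the KO mean and WT 2 was 2.49-fold above it, so the size of the Srpk2 difference depends on which control mouse is read. Without WT 2 the fitted log2 difference fell in size to −0.70, and without WT 1 it was −1.32. In bulk RNA, fewer cells that make a transcript and less transcript per cell cannot be told apart.

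Galnt11 (ENSMUSG00000038072) lies on the plus strand, at 25222882 to 25265918 in the authors' table and at 25221904 to 25265918 in GENCODE M21, with 5 transcripts of up to 12 exons. Its start is 1.72 Mb beyond that of Srpk2. Its raw counts were 793 in WT 1, 969 in WT 2, 535 in KO 1 and 470 in KO 2. The corresponding levels were 24.2, 31.9, 15.7 and 14.8 CPM. The groups did not overlap here either, and WT 2 was again the higher of the controls. The means were 28.0 ± 5.48 CPM (SD, n = 2) in WT and 15.3 ± 0.623 CPM (SD, n = 2) in KO, and the fitted log2 difference was −0.88 with a standard error of 0.13. The controls differed by 0.39 on the log2 scale and the KO libraries by −0.08. Without WT 2 the fitted log2 difference was −0.67, and without WT 1 it was −1.07. Per kilobase of the gene length in the authors' table, Srpk2 had 35.8 CPM and Galnt11 3.52 CPM in WT, so the kinase was the more abundant transcript.

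Gm2420 (ENSMUSG00000082305) lies on the plus strand, at 32724352 to 32736194 in the authors' table and at 32720330 to 32736194 in GENCODE M21, with 3 transcripts of up to 19 exons. It starts 9.22 Mb beyond Srpk2. Its raw counts were 103 in WT 1, 207 in WT 2, 1 in KO 1 and 0 in KO 2. As levels these are 3.14, 6.82, 0.0293 and 0 CPM. Both controls held more than 100 reads of the pseudogene, and the KO libraries together held 1. Summed over the group, the depth-scaled ratio of WT to KO was 323 (exact 95% interval 57.5 to 12779). For WT 1 alone the ratio was 206 (36.2 to 8229) and for WT 2 alone it was 448 (79.5 to 17779). The intervals cover counting error only. The controls also differed from each other by more than counting error, with a ratio of WT 2 to WT 1 of 2.17 (1.71 to 2.78). The fitted log2 difference of −8.03 depends on the prior count of the fit, since the KO group holds a single read.

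**Figure D1:**
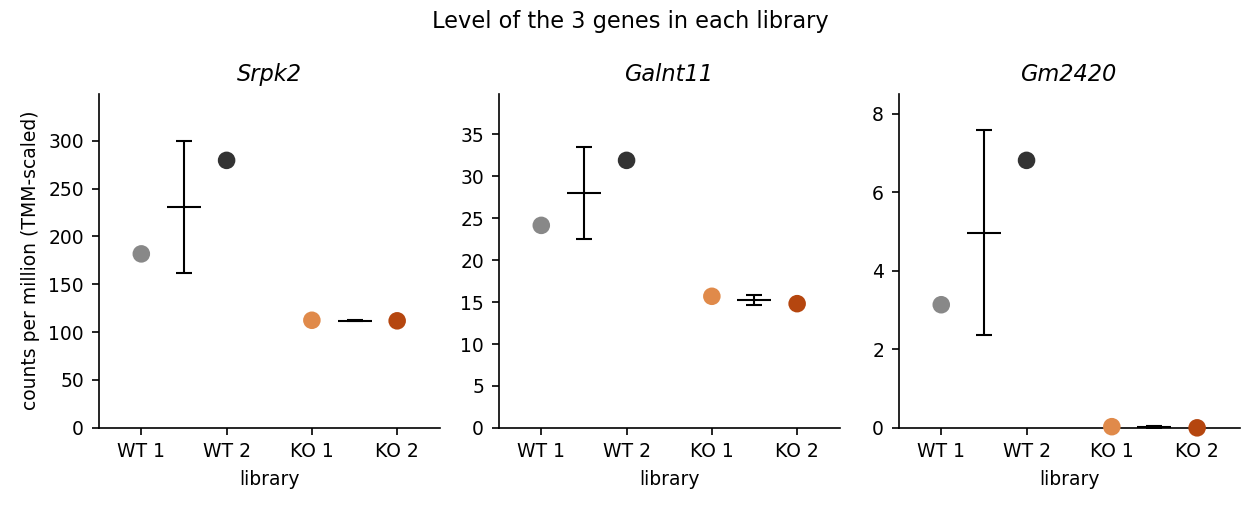
Level of Srpk2, Galnt11 and Gm2420 in each of the 4 libraries, in TMM-scaled CPM on linear axes that start at 0. Dots are libraries, and the bar between the dots of a group is its mean with the SD of its 2 mice. In each panel both KO dots lie below both WT dots, and WT 1 lies below WT 2.

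The 3 genes shared the order of the libraries as well as the direction. WT 2 was the highest, WT 1 lay between, and the KO pair was lowest. All 3 had KO below WT without overlap, as 20.1% of all tested genes did, and nothing is read from that count since the genes were picked by it. On a scale from the KO mean to WT 2, WT 1 stood at 41.6% for Srpk2, at 53.4% for Galnt11 and at 45.9% for Gm2420. As a percentage of WT 2, the level in WT 1 was 65.0% for Srpk2 and 75.7% for Galnt11, while KO 1 and KO 2 were at 40.2% and 40.0% for Srpk2 and at 49.2% and 46.4% for Galnt11. Sfi1, to which the whole Gm2420 transcript aligns and which lies on chromosome 11, did not follow this order. Its levels were 68.5 and 64.9 CPM in WT and 70.3 and 57.5 CPM in KO, with a log2 difference of −0.06 ± 0.09 (SE, edgeR adjusted p = 0.869).

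Each of the coding pair overlaps a gene on the opposite strand. The last 972 bases of the Srpk2 span, at its 3′ end, overlap the 3′ end of Kmt2e, a SET-domain protein of the MLL family. Kmt2e had levels of 297, 334, 334 and 347 CPM in WT 1, WT 2, KO 1 and KO 2, so it did not follow the order of Srpk2. The 5′ end of the Galnt11 span overlaps E130116L18Rik over 306 bases, and that gene had 0, 0, 1 and 0 counts in the same libraries. The Gm2420 span overlapped no other GENCODE gene.

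The genes around each of the 3 were read next, taking the 5 nearest tested genes on each side by start position. Around Srpk2, 6 of 10 neighbours had a log2 difference below 0 and 4 above, within −0.47 and 0.32. The nearest on each side, Kmt2e and the pseudouridine synthase gene Pus7, had log2 differences of 0.11 and 0.32. Around Galnt11, 5 neighbours were below 0 and 5 above, within −2.70 and 1.03. Around Gm2420, 7 were below 0 and 3 above, within −0.34 and 0.50. Neighbours with a mean under 1 CPM had large standard errors. Below 0 these were Rpl17-ps5 (−0.47 ± 0.55, SE) and ENSMUSG00000097978 (−0.18 ± 0.44, SE). Above 0 they were Wdr86 (1.03 ± 0.42, SE), 2900005J15Rik (0.39 ± 0.60, SE), Fosl2 (0.50 ± 0.45, SE) and Yes1 (0.24 ± 0.63, SE). None of the 30 neighbours reached an adjusted p under 0.05 with edgeR's quasi-likelihood test. Over all tested genes 0.0151% were called lower and 0.00753% higher. The smallest adjusted p was 0.115. Of these 30 neighbours, 6 had an unadjusted p under 0.05 with KO lower and 3 with KO higher, against 4.01% and 4.4% of all tested genes. DESeq2 called 2 of the 30, Prkag2 and 1500035N22Rik, both lower, against 0.0904% of all tested genes called lower.

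Genes with small and with large log2 differences lay close together. On one side of Galnt11 the 3 nearest tested genes were 2900005J15Rik, 1500035N22Rik and Prkag2, with log2 differences of 0.39, −2.70 and −0.65. Kmt2c, the nearest on the other side, is a histone methyltransferase gene whose model starts 0.0489 Mb beyond that of Galnt11. It had 296, 341, 343 and 348 CPM in WT 1, WT 2, KO 1 and KO 2 and a log2 difference of 0.12 ± 0.07 (SE). Rheb, the activator of mTORC1 and the next gene past Prkag2, stood at 60.9, 54.5, 58.8 and 58.4 CPM. Paxip1, an adaptor of the Kmt2c and Kmt2d complexes that starts 2.52 Mb beyond Galnt11, was at 144, 139, 139 and 144 CPM. Pisd, the phosphatidylserine decarboxylase of the inner mitochondrial membrane, starts 0.0119 Mb beyond Gm2420 and had 9.69, 11.1, 7.80 and 9.39 CPM, with a log2 difference of −0.28 ± 0.14 (SE, edgeR adjusted p = 0.627). Prr14l, the next gene, was at 122, 138, 123 and 129 CPM.

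At the limits of the window, Srpk2 is the first gene inside and Kmt2e (log2 difference 0.11) the last before it. At the other end Prr14l (−0.04) is the last inside and Depdc5 (−0.16) the first beyond it.

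Within the window 5 other genes with a mean of at least 1 CPM had the lowest log2 differences, none past the threshold of the quasi-likelihood test. Prkag2, a regulatory subunit of the energy sensor AMPK, had 48.3, 59.0, 33.7 and 34.5 CPM in WT 1, WT 2, KO 1 and KO 2. Its log2 difference was −0.65 ± 0.09 (SE, edgeR adjusted p = 0.115). Mrpl33, a protein of the large mitochondrial ribosomal subunit, had 65.6, 77.5, 47.8 and 49.3 CPM, with −0.56 ± 0.08 (SE, edgeR adjusted p = 0.115). Both lay lower in each KO library than in either control, and in both WT 1 stood between WT 2 and the KO pair, at 56.9% and 58.8% of the way from the KO mean.

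The long non-coding RNA 1500035N22Rik had 1.28, 2.70, 0.411 and 0.189 CPM, with a log2 difference of −2.70 ± 0.51 (SE, edgeR adjusted p = 0.284). It lies wholly inside the span of Prkag2, on the opposite strand, and no source used here gives the strand setting of the counting, so their reads may not be separate. Klhl7, an adaptor of Cullin-3 ubiquitin ligases, had 13.6, 20.3, 11.7 and 10.3 CPM (−0.62 ± 0.18, SE, edgeR adjusted p = 0.509). The non-coding 1700096K18Rik had 4.87, 4.94, 2.90 and 2.40 CPM (−0.89 ± 0.19, SE, edgeR adjusted p = 0.392), and there the controls lay side by side. The span of Mrpl33 overlaps that of Rbks on the other strand, so its reads carry the same uncertainty. Among genes of the window with a mean of at least 1 CPM, the largest log2 difference above 0 was that of Gm26648, an antisense transcript inside Nub1, with 1.28, 0.725, 3.05 and 1.42 CPM (1.15 ± 0.43, SE). Below 1 CPM, Wdr86 had 0.366, 0.362, 0.704 and 0.788 CPM (1.03 ± 0.42, SE). Smarcd3, a subunit of SWI/SNF chromatin remodellers named here after its values were seen, had 0.0914, 0.0659, 0.499 and 0.473 CPM (2.56 ± 0.62, SE).

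**Figure D2:**
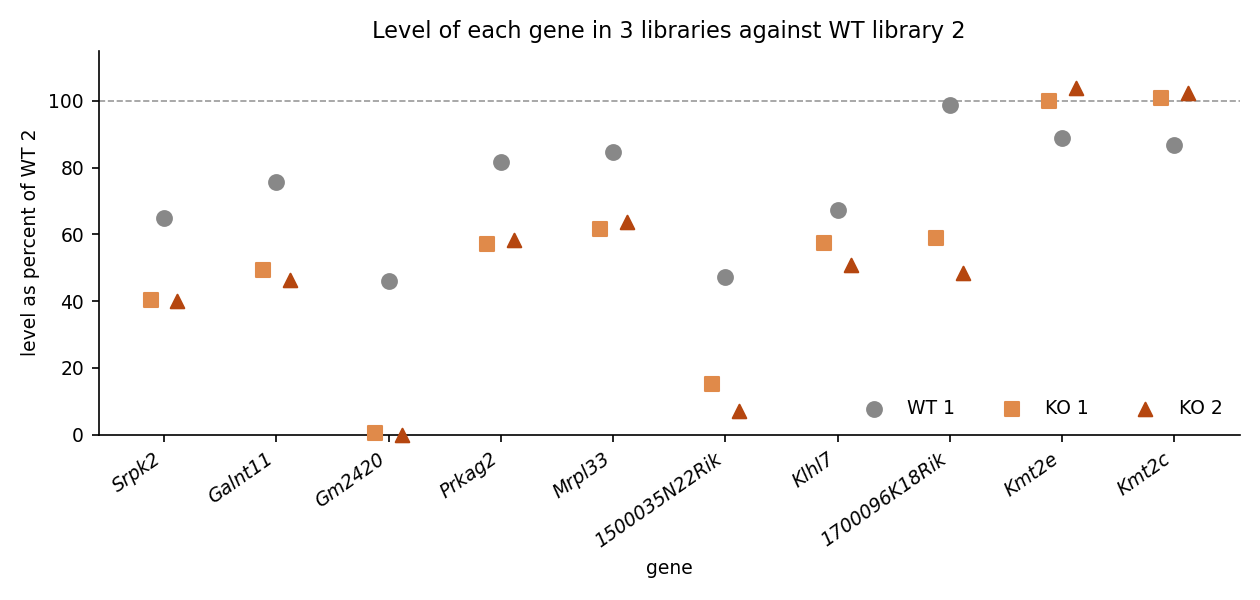
Level of each gene in WT 1, KO 1 and KO 2 as a percentage of its level in WT 2 (dashed line at 100), for Srpk2, Galnt11, Gm2420, 5 other low genes of the window and the neighbours Kmt2e and Kmt2c. For the first 7 genes WT 1 lies between WT 2 and the KO libraries, at 98.7% of WT 2 for 1700096K18Rik it does not stand apart from WT 2, and Kmt2e and Kmt2c have KO levels at or above WT 2.

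With DESeq2 as an alternative test, 3 other genes of the window passed an adjusted p of 0.05, all lower in KO, against 0.0904% of all tested genes called lower. These were Prkag2 (adjusted p = 1.56e-05), Mrpl33 (adjusted p = 2.68e-05) and 1500035N22Rik (adjusted p = 0.0105). Prkag2 and Mrpl33 were both called in 9 of 11 alternative fits. The edgeR exact test called 5 of the other genes lower and 1, Smarcd3, higher, against 0.241% and 0.376% of all tested genes. The authors' deposited table marks 3 of the 71 other genes it lists in the window as lower and none as higher, and outside the window it marks 13 of 11462 genes as lower (0.113%). Of all genes in the authors' deposited table, 0.165% are marked lower and 0.234% higher. The 3 other genes marked in the authors' deposited table are again Prkag2, Mrpl33 and 1500035N22Rik. Srpk2, Galnt11 and Gm2420 are marked there too. They were picked from that table for lower KO levels, so they are left out of these counts, and the window itself was drawn around them. The 3 other marked genes meet the same conditions, so being marked does not set the picked genes apart from them.

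Over the other 78 tested genes of the window, 50 had a log2 difference below 0 and 28 above, with a median of −0.03 against −9.8e-05 over all 13281 tested genes. The KO and WT libraries did not overlap in 29 of the 78 genes with KO lower (37.2%) and in 14 with KO higher (17.9%). Over all tested genes the shares were 20.1% lower and 20.4% higher. An unadjusted p under 0.05 was reached by 14 of the 78 with KO lower (17.9%) and by 5 with KO higher (6.41%), against 4.01% and 4.4% of all tested genes. The edgeR quasi-likelihood test called none of the 78 after adjustment.

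On the rest of chromosome 5 the shares were closer to those of all genes, where 138 of 736 genes (18.8%) had KO below WT without overlap and 34 reached an unadjusted p under 0.05 with KO lower. In the flank of the same length before the window these counts were 2 and 0 of 18 genes, and in the flank after it 11 and 3 of 57. Around Uqcrfs1, within 5 Mb of its start, 9 of the 26 other tested genes (34.6%) had KO below WT without overlap and 3 (11.5%) reached an unadjusted p under 0.05 with KO lower, against 20.1% and 4.01% of all tested genes. None of those 26 was called by edgeR or DESeq2. Beyond that limit on the same chromosome, Hist1h4i starts at 22040636, where Uqcrfs1 starts at 30540308. DESeq2 called Hist1h4i lower (log2 difference −1.70, DESeq2 adjusted p = 6.6e-05), and the edgeR quasi-likelihood test did not (edgeR adjusted p = 0.0902).

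**Figure D3:**
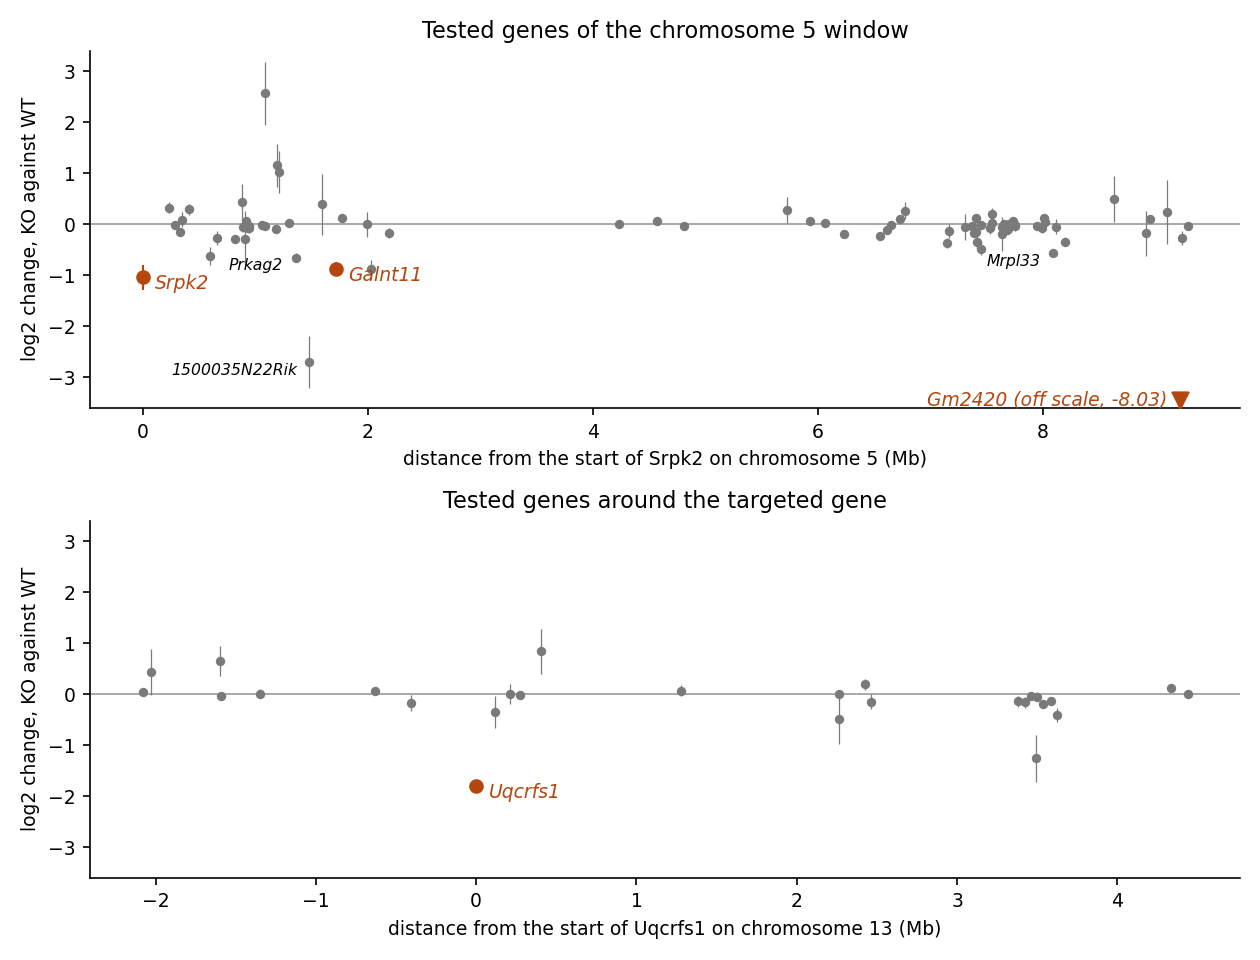
Fitted log2 difference, KO against WT, with its standard error, for each tested gene, plotted against distance in Mb from the start of Srpk2 on chromosome 5 (upper panel) and from the start of Uqcrfs1 on chromosome 13 (lower panel). Srpk2, Galnt11 and Gm2420 (orange, the last off scale at −8.03) stand among neighbours near 0, with Prkag2, Mrpl33 and 1500035N22Rik as other low genes. Uqcrfs1 stands at −1.80 with no other gene within 5 Mb as low.

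**Figure D4:**
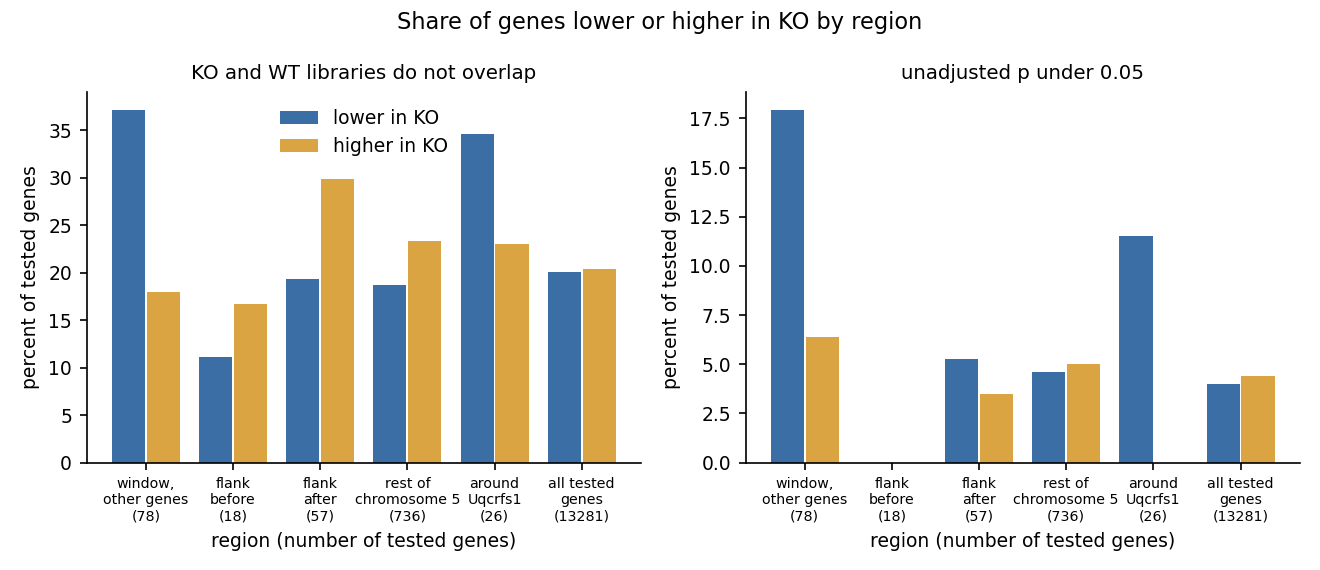
Percentage of tested genes lower (blue) or higher (yellow) in KO by region, counted where the KO and WT libraries do not overlap (left) and where the unadjusted p is under 0.05 (right). The other 78 genes of the window show 37.2% lower on the left and 17.9% lower on the right, against 20.1% and 4.01% over all tested genes.

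The order seen in the 3 genes, with WT 2 above WT 1, was counted among genes with KO below WT without overlap. They also had a log2 difference of −0.25 or lower and a mean of at least 1 CPM. The window counts leave out Srpk2, Galnt11 and Gm2420, while the counts over all tested genes include these 3 and the rest of the window. In the window 9 of 12 such genes had WT 2 above WT 1 (75.0%), and over all tested genes 196 of 409 did (47.9%). WT 1 stood at a median of 58.8% of the way from the KO mean to WT 2 in those 12 genes and at 103% over all 409. With the cut at a log2 difference of −0.5, WT 2 was above WT 1 in 5 of 5 window genes. Over all tested genes it was above in 50 of 82 (61.0%), a higher share than at −0.25. These counts were chosen after the values of Srpk2, Galnt11 and Gm2420 were seen and carry no test.

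Across the whole table, the 5 genes closest in pattern to each of the 3 were taken by the smallest Euclidean distance between log2(CPM + 0.5) values centred over the 4 libraries, among 11464 genes with a mean of at least 1 CPM. Closest to Srpk2 were Galnt11 (distance 0.23), Alyref2 (0.43), Prkag2 (0.44), Klhl7 (0.44) and Gm37461 (0.44). Closest to Galnt11 were Srpk2, Prkag2 (0.23), Alyref2 (0.24), Cpne5 (0.28) and Fam131a (0.28). Of these, Galnt11, Srpk2, Prkag2 and Klhl7 lie in the window, while Alyref2 lies on chromosome 1, Gm37461 on chromosome 3, Cpne5 on chromosome 17 and Fam131a on chromosome 16. The pattern of Gm2420 was not closely matched. Its nearest genes were 1500035N22Rik (1.75), Uqcrfs1 (1.76), Hist1h4i (1.99), Srpk2 (2.34) and Galnt11 (2.52). With 4 libraries in 2 groups, genes that differ between the groups by a like amount are close to one another by this measure.

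The other genes of the pathways in which Srpk2 and Galnt11 act were read from lists of known members. Of 22 other tested SR protein kinases and SR proteins, 6 had a log2 difference below 0 and 16 above, with a median of 0.07 and none called by edgeR. Over all tested genes 6648 were below 0 and 6633 above. Unadjusted p-values under 0.05 were reached by 3 of the 22, all with KO higher, where 4.4% of all tested genes were higher and 4.01% lower at that threshold. Srpk1, the closest relative of Srpk2 in the list, stood at 167, 157, 162 and 174 CPM in WT 1, WT 2, KO 1 and KO 2, so its libraries overlapped. The splicing factor genes Srsf5, Srsf10 and Srsf3 had the smallest p-values, with log2 differences of 0.15 ± 0.05, 0.14 ± 0.06 and 0.11 ± 0.05 (SE).

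Of 14 other tested genes of mucin-type O-glycosylation, 2 were below 0 and 12 above, with a median of 0.09, and none was called by edgeR. The same shares over all tested genes apply. C1galt1, which extends the first sugar to the core 1 structure, had 109, 122, 127 and 129 CPM in WT 1, WT 2, KO 1 and KO 2 and a log2 difference of 0.14 ± 0.06 (SE), and it alone reached an unadjusted p under 0.05. The sister transferases Galnt1 and Galnt4 had log2 differences of 0.10 and 0.13. Pisd, which lies beside Gm2420, and its pseudogenes Pisd-ps1 on chromosome 11 and Pisd-ps2 on chromosome 17 had log2 differences of −0.28, −0.24 and 0.06. None was called by edgeR, and Pisd-ps1 alone reached an unadjusted p under 0.05. DESeq2 called none of these other list genes.

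Some measures of the libraries also separated the groups. Reads outside annotated exons made up 17.2% and 18.6% in WT 1 and WT 2 and 20.6% and 19.9% in KO 1 and KO 2. The summed level of 3 double-negative (DN) thymocyte markers was 21.3, 23.8, 28.1 and 41.8 CPM in the same order, and that of 4 mature T cell markers was 224, 221, 237 and 241 CPM. The sum of 6 myeloid markers, at 17.2, 16.4, 16.8 and 24.8 CPM, set KO 2 apart and not the groups. The 5 erythroid markers summed to at most 0.221 CPM, with 2 at 0 in every library, and 6 markers of thymic epithelium and stroma to between 4.28 and 6.22 CPM. Their part in the levels of Srpk2, Galnt11 and Gm2420 was not tested. A stretch of chromosome 5 that differs between the mice and a response of these genes to the loss of Uqcrfs1 cannot be told apart. The gene counts hold no genotype calls, and neither was tested. Uqcrfs1 lies on another chromosome, and whether such a stretch follows the genotype label is not known here. In Srpk2, Galnt11 and Gm2420 the controls differed from each other, and both KO libraries lay below both controls. The cause was not tested.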

How the data were processed

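The members, the window, the gene lists and the counts made over them were chosen with earlier results of these data known. The submitters' processing notes name Trimmomatic 0.33, STAR 2.5.2, HTSeq, edgeR and the mm10 build. No source used here gives the strand setting, the annotation release or the handling of reads that match several genes, so overlapping genes and near-identical copies are uncertain. The authors deposited raw counts per gene for each library. Their deposited comparison gives CPM per library, log2 fold changes, a test score, p-values and adjusted p-values, which were used only where the text names that table.

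Counts were tested with edgeR 4.0.16 (R 4.3.3): filterByExpr, TMM factors, robust quasi-likelihood F-test on group, Benjamini-Hochberg adjustment over all 13281 tested genes, threshold 0.05. No p-value is given for Srpk2, Galnt11 or Gm2420, which were chosen by this contrast. DESeq2 1.42.0, edgeR's exact and likelihood ratio tests, RLE factors, other filters, other window limits, a replicate block and leaving out each library were the alternatives. An exact permutation test of 2 against 2 libraries cannot go below p = 0.333, so none was run. Each library is 1 mouse, per the series' design text. With so few mice, the p-values rest on a spread between mice that is largely borrowed from other genes (median prior degrees of freedom 6.78). The fit was tested on simulated counts, with 50 genes changed at each fold. It recovered 25 at 1.25-fold, 29 at 1.5-fold, 40 at 2-fold and 49 at 4-fold. Of its 161 calls at an adjusted p under 0.05, 18 were false, a larger share than the threshold aims for. The fit of the real counts called only 3 genes in all. With fewer calls the adjustment is stricter, so the simulated recovery does not carry over to the real comparison. Ratios of Gm2420 counts carry exact conditional binomial intervals. Promoters were matched by symbol for 2 of the 3 genes. Transcripts were compared with BLAST+ 2.17.0. Neighbours, the genes with the largest log2 difference, the genes closest in pattern and the list members with the smallest p are named by fixed rules. Reads that HTSeq assigned to no gene did not enter the library sizes.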

Additional observations from a re-analysis of the deposited data

How the results depend on the processing

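Srpk2, Galnt11 and Gm2420 kept KO below WT in all 11 alternative fits, but this direction was fixed in advance. The genes were picked for lower KO levels, and in each both KO libraries lay below both WT libraries. Leaving out 1 library in turn moved the log2 difference of Srpk2 between −1.32 and −0.70, that of Galnt11 between −1.07 and −0.67 and that of Gm2420 between −10.30 and −7.23. The edgeR quasi-likelihood test called 0 of the other genes of the window, while DESeq2 called 3 (0.181% of all genes called), the edgeR exact test and the likelihood ratio test 6 each (0.617% and 0.76% of all), and the fit with no filter on low counts 11 (0.911%), the last 3 with 1 higher each. Leaving out 1 library called between 3 and 5, against 0.297% to 0.387% of all genes without WT 1, KO 1 or KO 2 and 2.65% without WT 2. The fits without WT 2 and without KO 2 called 1 higher each. The replicate block called 2, Prkag2 and Mrpl33, against 0.203% of all. The replicate numbers are shared across groups in the titles only (correlation of the deviations of same-numbered libraries 0.075), so this block pairs a number and not a litter or a day. The median log2 difference of the window was −0.032 with at least 1 CPM in 2 libraries, −0.022 with no filter, −0.033 with the window widened by 2 Mb on each side, −0.031 for genes with a mean of at least 1 CPM, and between −0.035 and −0.018 with 1 library left out. Around Uqcrfs1 the counts over the alternatives, which were added after the data were seen, ranged from 0 to 2 with 1 library left out. In these cases the cause was not tested. Of 510 values of the other named genes under alternatives, 438 kept their direction and side of the threshold, 50 passed the threshold, in 12 genes, and 22 changed sign, in 15 genes that were not called. With 1 library left out, the log2 difference lay between −0.61 and 0.62 for 6030443J06Rik, −0.14 and 0.031 for 5031425E22Rik, −0.12 and 0.077 for Rint1, −0.085 and 0.28 for 2700038G22Rik, −0.061 and 0.10 for Rheb, −0.31 and 1.73 for 2900005J15Rik, −0.051 and 0.037 for 4831440E17Rik, −0.026 and 0.022 for Paxip1 (−0.0033 with no filter), −0.031 and 0.90 for Fosl2, −0.79 and 0.24 for ENSMUSG00000097978, −0.30 and 1.05 for Yes1, −0.13 and 0.050 for Prr14l, −0.092 and 0.067 for Ywhah, −0.14 and 0.076 for Ctbp1, and −0.11 and 0.25 for Pisd-ps2. Depth limits Gm2420 most, since its KO level rests on 1 read. A fit that leaves out 1 library has a lone sample in 1 group, and its spread is taken from the other group.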

Other observations

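Genes outside chromosome 5 were among the nearest in pattern. Alyref2, near Srpk2 and Galnt11 and a paralogue of the mRNA export adaptor Alyref, lies on chromosome 1. It had 8.35, 8.96, 4.72 and 4.89 CPM in WT 1, WT 2, KO 1 and KO 2, a log2 difference of −0.85. Hist1h4i, a replication-dependent histone H4 gene on chromosome 13 listed for Gm2420, whose pattern it did not match closely, had 5.45, 5.73, 2.02 and 1.42 CPM, a log2 difference of −1.69. In both genes the controls lay close together, unlike the controls of Srpk2 and Gm2420.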
